A study of Rattus norvegicus with 74 samples.

Results

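MicroRNA-210 (miR-210) was followed in whole kidney of untreated female and male F344 rats, an inbred strain often used in toxicology. Their ages were 2, 5, 6 and 8 weeks and, in adult and aged animals, 15, 21, 78 and 104 weeks. The array names were searched for rno-miR-210 with any arm suffix, which gave 2 members of the 677 miRNAs on the array, rno-miR-210-3p and rno-miR-210-5p. RNA of 1 animal was hybridized to each of 74 single-colour Agilent arrays, with 4 or 5 rats in each of the 16 groups of age and sex. All groups had the same strain and tissue, and no group received an agent or carried an engineered allele. The housing of the 2-week rats, which were not yet weaned, was not described separately. Females were not matched for stage of the estrous cycle. Because whole kidney was ground, fewer cells of a type and less RNA per cell cannot be told apart in any value given here.

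miRNAs are short RNAs that bind messenger RNAs, mainly through their seed (bases 2 to 8), and lower their output. miR-210 is the best known miRNA of the response to low oxygen: hypoxia-inducible factor (HIF), which is stabilised when oxygen is scarce, raises its transcription in many cell types, and its known targets include ISCU, which assembles iron-sulfur clusters for mitochondrial respiration, and EFNA3, a ligand of Eph receptors. The renal medulla works at low oxygen in healthy animals, and tubule cells, which make up most of the kidney, use much oxygen to move salt.

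The mature sequences are shown because the array read both arms of 1 hairpin and only the 3p arm was detected on more than 1 array. The seed is in capitals, and both sequences are from the RefSeq table of the GRCr8 build.
rno-miR-210-3p: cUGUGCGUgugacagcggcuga
rno-miR-210-5p: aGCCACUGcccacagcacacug
The whole hairpin follows, with the 5p arm and then the 3p arm in capitals.
Mir210 hairpin: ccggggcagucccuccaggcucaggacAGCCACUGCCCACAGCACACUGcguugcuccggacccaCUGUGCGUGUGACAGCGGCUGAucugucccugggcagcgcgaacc
The hairpin lies on the minus strand at chr1:205755923-205756032 (GRCr8), the 3p arm at chr1:205755946-205755967 and the 5p arm at chr1:205755984-205756005. It falls inside the long non-coding RNA gene LOC102553043 (chr1:205754978-205763340), between the protein-coding genes Rassf7, which ends at 205753350, and Phrf1, which starts at 205763264. Of the 311 miRNAs detected on at least 1 array, 282 were matched to a mature sequence by name, and miR-210-3p was the only 1 of these with its seed. The array also carried rno-miR-3574, annotated on the opposite strand at the same bases as the 3p arm.
rno-miR-3574: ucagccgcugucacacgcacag
This sequence is the exact reverse complement of miR-210-3p.

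miR-210-3p was detected on 74 of 74 arrays, with an unscaled total gene signal between 36.0 and 124.96 intensity units. Each array carried 2 probes for it with 10 spots each, and the ratio of the probes' signals ran from 1.93 to 2.46 across the arrays (median 2.18). The spots of a probe on an array varied by a median coefficient of variation of 6.95% for the brighter probe and 8.84% for the dimmer one. miR-210-5p, the passenger arm in most tissues, was detected on 1 of 74 arrays, that of 6-week female replicate 3, with a signal of 14.3 intensity units. On the other arrays it was listed as not detected, and no sex or age comparison was made for it. miR-3574 was detected on 0 of 74 arrays. All comparisons below are therefore of miR-210-3p. On 3 arrays of young males, 2-week replicate 1, 6-week replicate 1 and 5-week replicate 2, the liver miRNA miR-122-5p stood apart with levels of 23.6, 5.82 and 3.91, while on no other array was it above 1 and the next level was 0.672; its part in the results was not tested, and the miR-210-3p values without these arrays are given beside the results that they touch. Its level is the total gene signal divided by the 75th percentile of the signals on the same array, a factor that ran from 81.2 to 283 intensity units, and the arrays each detected 190 to 264 miRNAs.

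miR-210-3p was higher in female than in male kidney at each of the 4 ages from 15 to 104 weeks, and no such difference passed the test at 2, 5, 6 or 8 weeks. Over 15 to 104 weeks the 19 females lay between 0.469 and 0.580 (median 0.506) and the 19 males between 0.286 and 0.412 (median 0.345), so that every female was above every male. Over 2 to 8 weeks the 17 females lay between 0.397 and 0.718 (median 0.446) and the 19 males between 0.361 and 0.601 (median 0.417), and the sexes overlapped. The values by age follow.

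**Figure D1:**
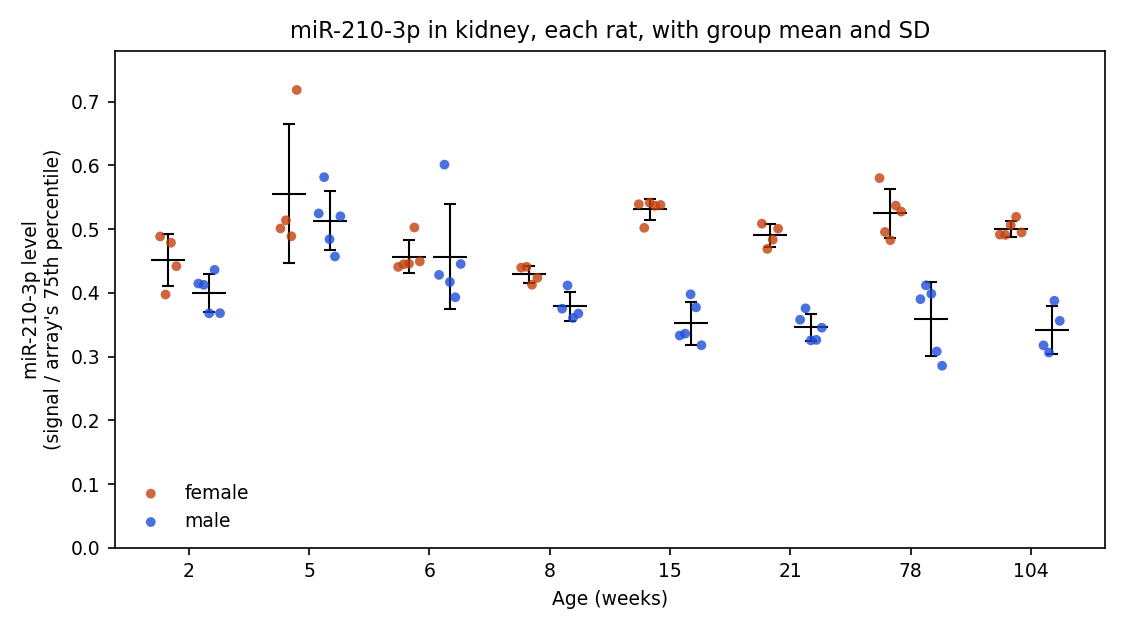
Level of miR-210-3p (total gene signal divided by the array's 75th percentile, linear axis from 0) against age in weeks, with 1 point per rat, females orange and males blue, and bars for the group mean ± SD (n = 4 or 5). From 15 weeks on, the lowest female (0.469) lies above the highest male (0.412).

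At 15 weeks, when F344 rats are young adults, the 5 females had levels of 0.539, 0.502, 0.542, 0.537 and 0.538. The 5 males had levels of 0.333, 0.336, 0.398, 0.377 and 0.318. The females sat close together except for the 1 at 0.502, and no male reached the lowest female. The group means were 0.532 ± 0.0165 (SD, n = 5) and 0.352 ± 0.0336 (SD, n = 5). Male minus female was -0.60 on the log2 scale (SE 0.0881), a level 1.51-fold higher in females, with a limma adjusted p of 5.01e-07. This met both conditions of the study's call, a fold of 1.5 or more and an adjusted p below 0.05, which 2.89% of the 311 miRNAs met at this age in the female direction and 3.54% in either direction. Groups that did not overlap in this direction were seen for 5.47% of miRNAs. The fold stood just over its threshold: without male replicate 1, 2 or 6 it was 1.49, 1.496 or 1.48, and the highest adjusted p when any 1 array was left out was 7.79e-06.

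At 21 weeks the 4 females had levels of 0.509, 0.469, 0.484 and 0.501. The 5 males had levels of 0.358, 0.376, 0.326, 0.326 and 0.345. The groups did not overlap, as was the case for 2.89% of miRNAs in the female direction at this age. Male minus female was -0.50 (SE 0.0934), 1.42-fold higher in females, with a limma adjusted p of 4.98e-05, a threshold that 3.86% of miRNAs passed in that direction. The fold was under 1.5, so the combined call, met by 2.57% of miRNAs in this direction, was not met.

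At 78 weeks the 5 females had levels of 0.580, 0.496, 0.483, 0.537 and 0.528. The 5 males had levels of 0.390, 0.412, 0.399, 0.308 and 0.286 and the widest spread among the older groups (SD 0.0577), with 3 animals close together and 2 well below them. The groups still did not overlap, as for 8.04% of miRNAs in this direction. The difference was -0.56 (SE 0.0881), 1.47-fold higher in females, with a limma adjusted p of 2.03e-06 (15.4% of miRNAs passed in this direction). This SE rests on 1 spread shared by all 16 groups. In a limma fit to this age alone the SE was 0.114 and the adjusted p 0.0349. The methods' t-test gave an adjusted p of 0.0475, close to the threshold. The fold was under 1.5, short of a call that 3.22% of miRNAs met, and it passed 1.5 without female replicate 4 (1.505) or without male replicate 2, 3 or 4 (1.51, 1.53 and 1.52).

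At 104 weeks the 5 females had levels of 0.491, 0.491, 0.506, 0.519 and 0.495. The 4 males had levels of 0.318, 0.306, 0.388 and 0.356. The females had the smallest SD of the 16 groups (0.0122), and again no male reached the lowest female. The difference was -0.56 (SE 0.0934), 1.47-fold higher in females, with a limma adjusted p of 5.53e-06 (13.5% of miRNAs passed in this direction). At this age 14.1% of miRNAs had groups that did not overlap in this direction, and 2.89% met the combined call. Without male replicate 3 the fold of miR-210-3p was 1.53, past the threshold.

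Averaged over the 4 older ages, male minus female was -0.55 (SE 0.0454, 95% interval -0.65 to -0.46), a level 1.47-fold higher in females with a limma adjusted p of 9.06e-16. By p-value this ranked 3 of 311. This set of ages was chosen with earlier results of these data known, so p-value and rank are not those of a grouping fixed beforehand. In that average 69 miRNAs passed an adjusted p of 0.05 in the female direction (22.2% of those tested) and 32 in the male direction; 4.18% were also at least 1.5-fold higher in females, which miR-210-3p was not. Other scalings changed that split of all miRNAs to 43 and 42, 22 and 64, or 44 and 54 (75th percentile over miRNAs detected on all arrays, over all miRNAs of the array, and quantile normalization), while the miR-210-3p average kept its sign and passed the adjusted p under each of them.

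An adjusted p under 0.05 in the female direction at each of the 4 older ages was found for 3 miRNAs, 0.965% of those tested. They were miR-210-3p, miR-421-3p and miR-499-5p, named after their values were seen. With quantile normalization or the percentile over miRNAs detected on all arrays miR-499-5p was lost, with the percentile over all miRNAs of the array only miR-421-3p was left, and with normexp correction 0 were. Averaged over these ages miR-421-3p differed by -1.05 (SE 0.0866) and miR-499-5p, which lies in a myosin heavy chain gene, by -0.98 (SE 0.0786) on the log2 scale. With the reported scaling both were further apart than miR-210-3p. Over the reported and 6 other scalings miR-421-3p ran from -1.05 to -0.21 and miR-210-3p from -0.55 to -0.27. In at least 1 scaling miR-421-3p thus differed less than miR-210-3p. Groups that did not overlap at all 4 ages with females higher were seen for miR-210-3p alone (0.322% of miRNAs), and this was also so with quantile normalization and with the percentile over miRNAs detected on all arrays. With the percentile over all miRNAs of the array or with the normexp background correction, 0 miRNAs were apart at all 4 ages. Their sequences share no seed with miR-210-3p.
rno-miR-421-3p: aUCAACAGacauuaauuggg
rno-miR-499-5p: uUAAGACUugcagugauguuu

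At 2 weeks, before weaning, the 4 females had levels of 0.489, 0.397, 0.479 and 0.442. The 5 males had levels of 0.415, 0.413, 0.368, 0.436 and 0.368, and the groups overlapped. The difference was -0.17 (SE 0.0934), with a limma adjusted p of 0.273. A threshold of 0.05 was passed by 10.9% of miRNAs at this age. The adjusted p was 0.0288 with the percentile over miRNAs detected on all arrays and 0.0429 with quantile normalization, both with a difference in the same direction. Without the male of high miR-122-5p (replicate 1) the difference was -0.19 (adjusted p = 0.288 with all 3 such arrays left out).

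At 5 weeks the 4 females had levels of 0.501, 0.514, 0.489 and 0.718. The 5 males had levels of 0.525, 0.582, 0.484, 0.457 and 0.520. The female at 0.718 had the highest level of all 74 rats, and the other females lay within the male range. The difference was -0.099 (SE 0.0934, limma adjusted p = 1), and without that female it was 0.030, with males higher. At this age 0% of miRNAs passed in limma, or by the methods' t-test with Benjamini-Hochberg adjustment, and 10 of the 311 had an unadjusted limma p under 0.05.

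At 6 weeks the 5 females had levels of 0.441, 0.445, 0.446, 0.503 and 0.449. The 5 males had levels of 0.428, 0.601, 0.417, 0.393 and 0.445. Apart from 1 male at 0.601 the sexes lay close, and the difference was -0.014 (SE 0.0881, limma adjusted p = 1, with 0.322% of miRNAs passing). Its sign changed with the background correction, with quantile normalization, with the dimmer probe alone and without any of 4 single arrays. Among these 4 was male replicate 1, the only 6-week array of high miR-122-5p. Leaving out all 3 arrays of high miR-122-5p therefore gave the same value as leaving it out (0.0052). No direction can be given at this age.

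At 8 weeks the 4 females had levels of 0.440, 0.441, 0.413 and 0.424. The 4 males had levels of 0.375, 0.412, 0.361 and 0.368. The groups did not overlap, although the lowest female and the highest male were almost level, and 5.14% of miRNAs were apart in this direction. The difference was -0.18 (SE 0.0985), with a limma adjusted p of 0.531 (1.93% of miRNAs passed). In an exact two-sided permutation test of miR-210-3p alone the p-value was 0.0286, or 0.0457 adjusted over the 8 ages. The same test gave 0.00794, or 0.0159 adjusted, at each of 15, 21, 78 and 104 weeks. Groups that do not overlap bring this test to or near its lowest possible p-value, which is set by group size. That value is 0.0286 for 4 against 4 rats and 0.00794 for 5 against 5. The test therefore adds nothing to the lack of overlap, and its p-values do not rank these ages.

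The average over 2 to 8 weeks was -0.12 (SE 0.0467, 95% interval -0.21 to -0.024), with a limma adjusted p of 0.191 (2.89% of miRNAs passed). It fell under 0.05 with the percentile over miRNAs detected on all arrays (adjusted p = 0.0244), when all miRNAs of the array were tested (0.0254) and without 6-week male replicate 2 (0.0481), and was 0.158 without the 3 arrays of high miR-122-5p (-0.13). The difference between the averages of the older and the younger ages, which tests directly whether the sex difference changed, was -0.44 (SE 0.0651, 95% interval -0.57 to -0.31), with a limma adjusted p of 6.66e-07; 15.1% of miRNAs passed this test, and without those 3 arrays it was -0.43 (adjusted p = 2.64e-06). This change rests on age sets chosen with earlier results of these data known. The test of age by sex interaction over all 8 ages gave an adjusted p of 5.35e-05, against 27.7% of miRNAs under 0.05. Both adjusted p-values rose above 0.05 with the percentile over all miRNAs of the array (0.129 and 0.793) and with normexp correction (0.524 and 0.614).

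**Figure D2:**
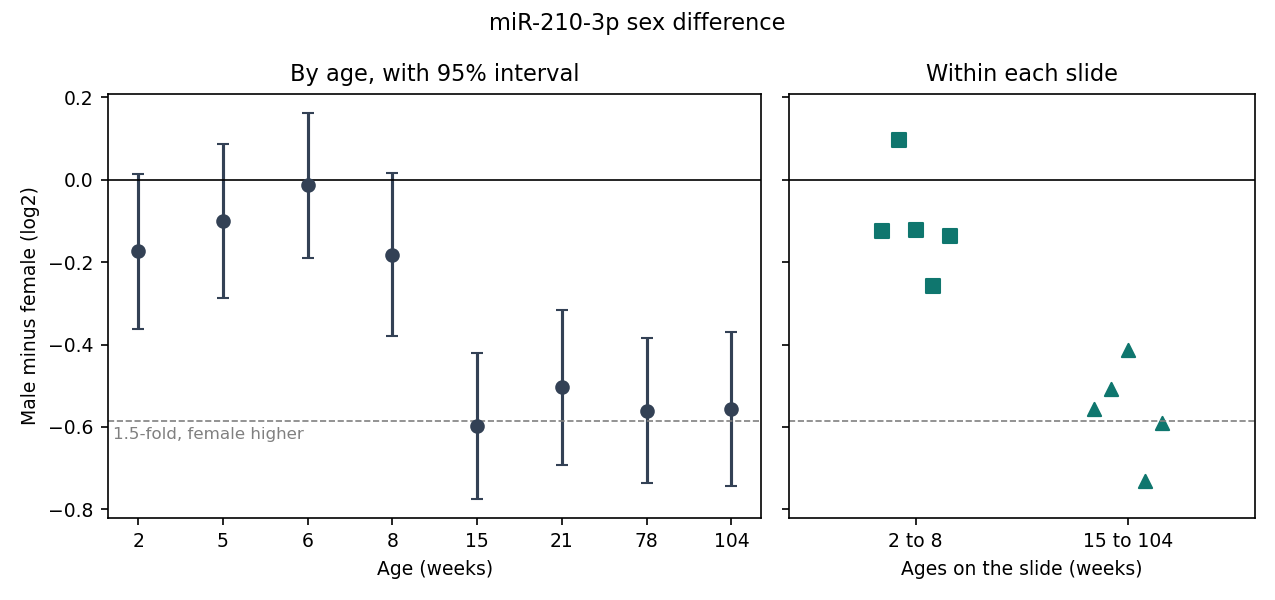
Left, male minus female log2 level of miR-210-3p at each age with its 95% interval from the limma fit. Right, male minus female within each of the 10 slides, after subtracting from each log2 level the mean of both sexes at its age. Squares mark slides of the younger and triangles slides of the older ages. The dashed line marks 1.5-fold higher in females. The older ages lie between -0.60 and -0.50 and the slides that carried them between -0.73 and -0.41.

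The arrays were printed 8 to a slide, and 10 slides were used. Both sexes were on every slide, but the younger and the older ages were on different slides, apart from 1 female of 15 weeks (level 0.538) on a slide of younger animals. For the values by slide and by day of scanning, the mean of both sexes at its age was first subtracted from each log2 level. The 15-week female on a slide of younger animals was left out of the slide values. Within the 5 slides of older animals male minus female was -0.56, -0.51, -0.41, -0.73 and -0.59. Within the 5 slides of younger animals it was -0.13, 0.096, -0.12, -0.26 and -0.14, so that the ranges of the slide sets did not meet. On the days of scanning that held both sets of ages, the difference was 0.0036 for the younger and -0.47 for the older animals on one day, and -0.20 and -0.65 on the other.

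Because the level is a ratio, the signal and its divisor were also looked at apart. Over 15 to 104 weeks the unscaled signal averaged 83.0 ± 19.8 (SD, n = 19) for female and 60.4 ± 14.4 (SD, n = 19) for male rats. In mean log2 signal the males were lower by -0.45, and their 75th percentile was higher by 0.10. Pooled over these ages, most of the difference of -0.55 was thus present before scaling, but single ages varied, as given below. Over 2 to 8 weeks the unscaled signal averaged 68.4 ± 18.7 (SD, n = 17) for female and 68.4 ± 18.6 (SD, n = 19) for male rats. In mean log2 signal the younger males differed by -0.0049 and their 75th percentile by 0.11, so that the younger difference of -0.12 was nearly all in the divisor. Among the older ages the unscaled signals of the sexes were apart only at 15 weeks (lowest female 80.3, highest male 69.3). At 21 weeks they just overlapped (76.8 and 77.9), and at 78 and 104 weeks they overlapped widely. The 78-week signal averaged 66.0 ± 17.6 for female and 58.3 ± 15.0 for male rats (SD, n = 5 each), and the divisor 128 and 162. The 104-week signal averaged 83.4 ± 20.2 (SD, n = 5) and 69.5 ± 14.5 (SD, n = 4), and the divisor 167 and 205. A large part of the difference at 78 and 104 weeks therefore lay in the divisor. At 15 weeks the divisor was lower in males (161 against 184).

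**Figure D3:**
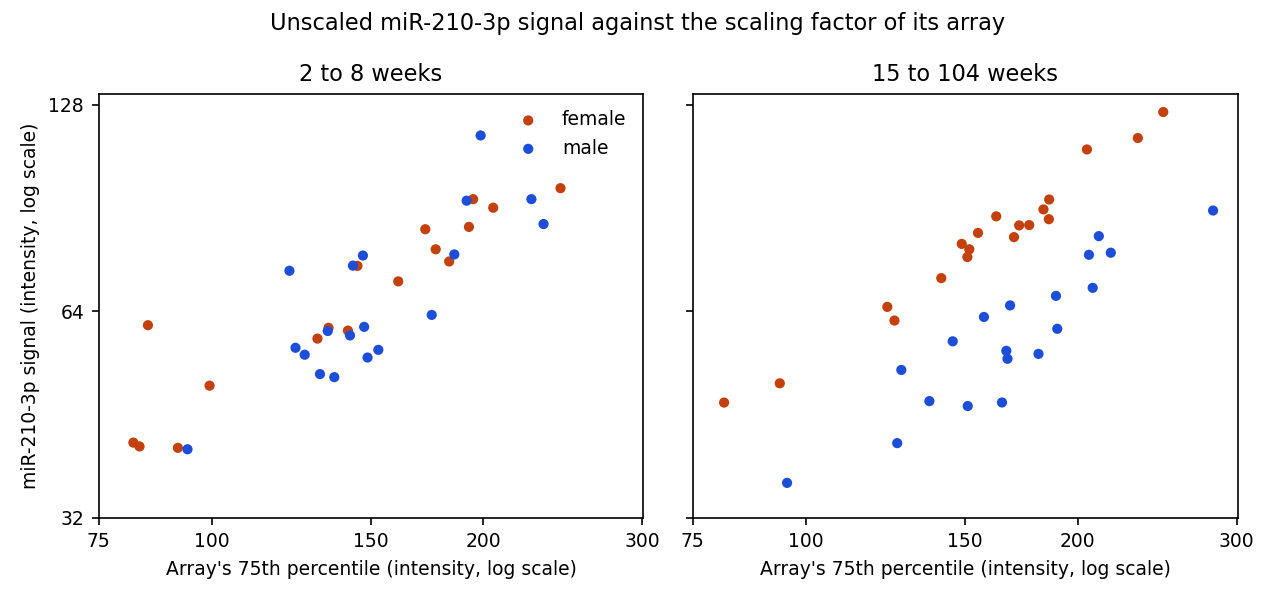
Unscaled miR-210-3p signal against the 75th percentile of the same array, both as intensity on log scales, with 1 point per rat, for 2 to 8 weeks (left) and 15 to 104 weeks (right). At the older ages the 19 females form a band above the 19 males, and at the younger ages the sexes are mixed.

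The average sex difference over 15 to 104 weeks kept its direction under each of the other settings tried. It lay between -0.57 and -0.27 over 17 of them, leaving out single arrays not counted, and the highest adjusted p among them was 2.71e-05. The value nearest 0, -0.27 (SE 0.0468), came from normexp correction with an offset of 50 intensity units. With that correction the younger average was -0.14, and 17 of the 19 older males lay below every older female. With the percentile over all miRNAs of the array, most of which were not detected, the older average was -0.37. There 12 of the 19 older males lay below every older female. With each probe alone the older average was -0.57 and -0.52.

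**Figure D4:**
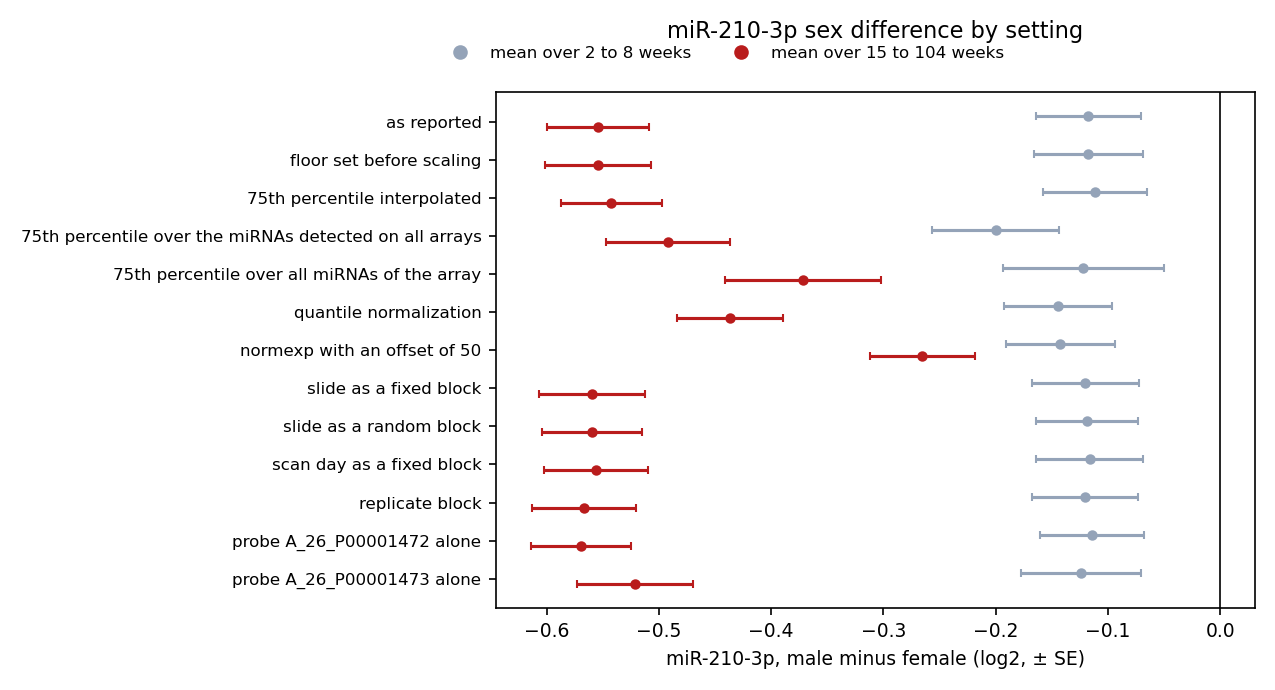
Male minus female log2 level of miR-210-3p (± SE) averaged over 2 to 8 weeks (grey) and 15 to 104 weeks (red), as reported and under 12 other settings. Every older average lies below 0, from -0.57 to -0.27; every younger average lies between -0.20 and -0.11.

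Across the life span the level of miR-210-3p ranged less between groups than that of the median miRNA in each sex. In females the mean ran from 0.429 ± 0.0135 (SD, n = 4) at 8 weeks to 0.556 ± 0.109 (SD, n = 4) at 5 weeks, with 0.532 at 15 and 0.525 at 78 weeks next in order. The range on the log2 scale was 0.35, or 1.28-fold, while the median miRNA ranged over 0.69. The first place of 5 weeks rested on replicate 6: without it the mean was 0.501 ± 0.0125 (SD, n = 3), the highest age was 15 weeks and the range was 0.31. limma gave an age effect with an adjusted p of 0.00127 (49.8% of miRNAs passed 0.05), but no pair of ages differed by 1.5-fold, so the study's call was not met; 36.7% of miRNAs met it. In males the mean fell from 0.514 ± 0.0470 (SD, n = 5) at 5 weeks to 0.342 ± 0.0372 (SD, n = 4) at 104 weeks, 1.503-fold or 0.59 on the log2 scale (0.76 for the median miRNA), with an age effect at an adjusted p of 2.62e-05 (58.8% of miRNAs passed 0.05). This met the call, as 45.3% of miRNAs did. The fold stood at its threshold: the call was lost without 5-week male replicate 1, 2 or 6 or 104-week male replicate 1 or 2, with adjusted p-values from 5.25e-05 to 0.00017, and without the 3 arrays of high miR-122-5p (0.000386).

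Of the 28 pairs of ages, 9 in females and 10 in males passed a limma adjusted p of 0.05, where 18.6% of all tests of a miRNA and a pair passed in females and 23.2% in males. In females the level at 15 weeks was above that at 8 weeks by 0.31 (SE 0.0750, adjusted p = 0.00784, passed by 6.11% of miRNAs) and that at 78 weeks by 0.29 (adjusted p = 0.0075, 16.1% of miRNAs). In males the levels at 15, 21, 78 and 104 weeks were below that at 5 weeks by 0.54, 0.57, 0.53 and 0.59 on the log2 scale, with adjusted p-values of 6.10e-05 to 0.000179 (passed by 13.8%, 25.1%, 22.2% and 26.7% of miRNAs). In males 15 minus 8 weeks was -0.11 (SE 0.107, adjusted p = 0.798). Within 15 to 104 weeks, 0 of 6 pairs passed in either sex in limma, and 0 had an unadjusted p under 0.05, with a lowest adjusted p of 0.519 in females and 0.952 in males. From high to low the female order, with the 5-week replicate 6 included, was 5, 15, 78, 104 (0.501), 21 (0.491), 6 (0.457), 2 (0.452) and 8 weeks. The male order was 5, 6 (0.457), 2 (0.400), 8 (0.379), 78 (0.359), 15 (0.352), 21 (0.346) and 104 weeks. In neither order did a pair of direct neighbours pass the test. Comparisons of a younger with an older age cross the sets of slides, and age and slide cannot be told apart in them.

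The miRNAs whose pattern was most like that of miR-210-3p were found by Pearson's r over the 16 group means of log2 level, among 165 other miRNAs detected on all arrays. The 5 highest were miR-202-3p (r = 0.74), miR-23b-3p (0.74), miR-352 (0.68), miR-10a-3p (0.68) and miR-27b-3p (0.66). The 3 lowest were miR-204-5p (-0.64), miR-126a-5p (-0.58) and miR-497-5p (-0.56). These are descriptions across group means that share arrays and scaling, and across rats within groups, r with the same 8 miRNAs ran only from -0.24 to 0.19. The group means behind r include the older groups of both sexes, so the direction of the sex difference there is part of the choice: it ran from -0.20 for miR-352 to -1.05 for miR-202-3p among the 5 highest and was 0.52 for miR-204-5p. miR-23b-3p and miR-27b-3p lie 221 bases apart on chromosome 17 and are shown because both also belong to the hypoxia-raised list below. The capitals mark the seeds, neither of which is that of miR-210-3p.
rno-miR-23b-3p: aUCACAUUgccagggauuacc
rno-miR-27b-3p: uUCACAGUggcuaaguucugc

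Other miRNAs linked to low oxygen differed between the sexes in both directions at the older ages. Of 18 miRNAs reported to rise in hypoxic cells, all tested, 7 were higher in females and 4 in males in the average over 15 to 104 weeks, with 7 passing in neither direction and a median of -0.027 on the log2 scale. Over all 311 miRNAs 32.5% passed in either direction and the median was -0.032. With the reported scaling miR-210-3p differed further than each of the 18, but miR-21-5p, at 0.33 to 0.51 over 6 other scalings, differed further with normexp correction and with the percentile over all miRNAs of the array. The 7 in the female direction were miR-23b-3p (-0.34), miR-192-5p (-0.25), miR-27b-3p (-0.24), miR-26b-5p (-0.16), miR-103-3p (-0.14), miR-107-3p (-0.12) and miR-24-3p (-0.10), with adjusted p-values from 2.68e-10 to 0.0375. miR-103 and miR-107 are close relatives known for their action on insulin signalling, and miR-192 is abundant in tubule epithelium. The 4 in the male direction were miR-21-5p (0.33), miR-181b-5p (0.21), miR-195-5p (0.16) and miR-181a-5p (0.15), with adjusted p-values from 0.00104 to 0.0323. miR-21 is known for its increase in injured and fibrotic kidney. The split of these 18 depended on the scaling: it was 3 and 5 with the percentile over miRNAs detected on all arrays, 3 and 8 with quantile normalization, 0 and 8 with the percentile over all miRNAs of the array and 0 and 0 with normexp correction (4 at an unadjusted limma p under 0.05). Under these scalings miR-23b-3p, miR-27b-3p and miR-192-5p kept a negative sign, whereas miR-24-3p, miR-26b-5p, miR-103-3p and miR-107-3p turned positive in at least 1.

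**Figure D5:**
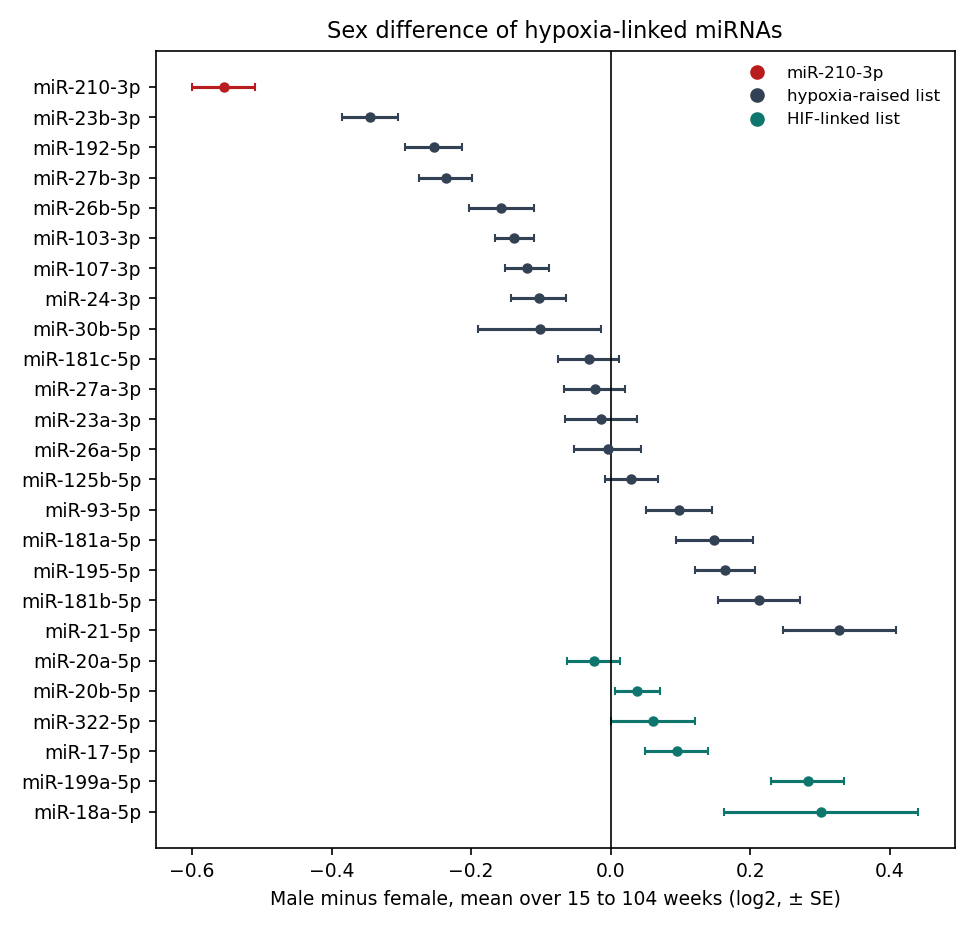
Male minus female log2 level (± SE) averaged over 15 to 104 weeks for miR-210-3p (red), the 18 hypoxia-raised miRNAs (dark grey) and 6 miRNAs linked to HIF (green). miR-210-3p at -0.55 lies farthest to the female side, and the others lie on both sides of 0, from -0.34 to 0.33.

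Over 2 to 8 weeks 0 of the 18 passed in limma (3 had an unadjusted p under 0.05), where 2.89% of all miRNAs did. An age effect by adjusted p was found for 12 of them in females, where 49.8% of all miRNAs passed, and for 18 in males, where 58.8% did. Of 7 miRNAs reported to act on HIF1A, the oxygen-regulated HIF subunit, or on its breakdown, 6 were tested and miR-155-5p was not matched by name. In the older average 1 of the 6 passed, where 32.5% of all miRNAs did in either direction and 10.3% in the male direction. It was miR-199a-5p, a miRNA known to target HIF1A, which was higher in males by 0.28 (SE 0.0522, limma adjusted p = 1.78e-05). The count in the male direction was 2 with the percentile over miRNAs detected on all arrays, 3 with quantile normalization and 5 with the percentile over all miRNAs of the array. With normexp correction it was 1. In the younger average miR-20b-5p alone passed, higher in males by 0.11 (adjusted p = 0.0416). All 6 passed the test of age in both sexes, against the same shares of all miRNAs.

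The tissue was checked against miRNAs that mark cell types. For tubule epithelium miR-192-5p, miR-194-5p and miR-204-5p were detected on all 74 arrays, and miR-215 on 0. In the older average miR-192-5p was higher in females and miR-204-5p in males, while miR-194-5p did not pass (-0.12, adjusted p = 0.0552). The endothelial pair miR-126a-3p and miR-126a-5p passed in neither direction (-0.089 and 0.22). In the older average the leukocyte list differed in the direction opposite to miR-210-3p. There 4 of 4 members were higher in males (3 of 4 with normexp correction), where 10.3% of all miRNAs were. The sizes were 0.81 for miR-142-3p, 0.55 for miR-223-3p and 0.23 for miR-150-5p. Taken singly, fewer than all 4 older ages passed: 3 for miR-223-3p, 2 each for miR-142-3p and miR-142-5p and 1 for miR-150-5p. The change from the younger ages passed for all 4, and for 5.14% of all miRNAs in that direction. The fourth, miR-142-5p, was detected on 9 of 19 older male arrays, 1 of 19 older female arrays and 0 of the 36 younger ones, so no size is given for it. Their summed level ran from 2.45 to 3.57 (median 2.96) in the older females and from 2.73 to 7.67 (median 3.70) in the older males, and over 2 to 8 weeks from 2.00 to 3.31 and from 1.69 to 3.35. Of the erythroid list 3 of 3 tested members were higher in the older males (10.3% of all miRNAs were), with a summed level of 0.935 to 3.79 in females and 1.06 to 4.46 in males, and miR-486 was not matched by name. miR-144-3p and miR-144-5p of that list were detected on 5 and 14 arrays and turned negative under normexp correction. Of the muscle list 1 of 2 tested members, miR-206-3p, was higher in males (0.46, detected on 17 arrays and negative under normexp correction). The other tested member, miR-133b-3p, was detected on all 74 arrays and did not pass (0.17, limma adjusted p = 0.111). Of the same list miR-1-3p and miR-133a-3p, which define muscle, were detected on 0 arrays. miR-122-5p did not pass in the older average (-0.99, SE 0.498) or the younger one (0.93, adjusted p = 0.464), where the 3 arrays named above hold its highest levels. The part of these cell types in the miR-210-3p difference was not tested.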

How the data were processed

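Per the labels, total RNA of whole kidney was labelled with Cy3 and hybridized to Agilent rat miRNA arrays, and Agilent Feature Extraction 10.7.3.1 is named in the submitters' processing notes. The authors deposited 1 scanner file per array with intensity values in linear units; the total gene signal sums the background-subtracted probe signals of a miRNA, with 0.1 for not detected. The flags in the deposited files (unit other) gave detection and outlier spots. A normalized table of the whole series was not used here, because most of its columns did not hold the array they name.

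Signals of the 311 miRNAs detected on at least 1 of 74 arrays were divided by the array's 75th percentile, values under a common floor (0.0171) were raised to it, and log2 was taken. limma 3.58.1 (R 4.3.3, statmod 1.5.0) fitted the 16 groups, with Benjamini-Hochberg adjustment over all 311. A call needed an adjusted p under 0.05 and a 1.5-fold difference (for age, in a pair of ages), as in the study's methods; the interaction needed the adjusted p alone. The fit was tested on simulated data. miR-210-3p passed the filter by detection on all arrays; miR-210-5p passed by 1 array. The members, the lists and the sets of older and younger ages were chosen with earlier results of these data known. miR-210-3p was described in full, with the 5 miRNAs of highest and 3 of lowest r, and the list members. Other scalings, filters, slide, scan day and replicate blocks, single probes, other tests and leaving out each array were tried. Replicate numbers did not pair the females and males of an age. Deviations of same-numbered female and male arrays of an age had a mean r of 0.038 over 28 pairs of arrays, with single values from -0.61 to 0.71. Numbers were not compared between ages. The number of arrays limits the precision. Kidney histology scores were not used here.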

Additional observations from a re-analysis of the deposited data

Results flagged for a closer look

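Among the 16 groups, 4 held a miR-210-3p level that stood apart from the others of its group by Dixon's test, where chance alone gives about 1 group in 20. The 5-week female replicate 6 had a level of 0.718, the 6-week female replicate 4 of 0.503 and the 6-week male replicate 2 of 0.601, each the highest of its group. The 15-week female replicate 2 had a level of 0.502, the lowest of its group. The 5- and 6-week females that stood apart had low scaling factors, 85.0 and 81.9 intensity units, and the other 2 animals had 121.98 and 249; the part of the scaling factor was not tested.

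The sex difference itself differed between age sets. It was more negative by -0.44 at 15 to 104 weeks than at 2 to 8 weeks, and the age by sex interaction had a limma adjusted p of 5.35e-05.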

How the results depend on the processing

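In the average over 15 to 104 weeks, and at 15, 21, 78 and 104 weeks taken singly, females were higher under every alternative run. Some alternatives, such as the filters and the dropped fold threshold, could not change these differences. The call at 15 weeks, which needs 1.5-fold, was not met with the percentile over miRNAs detected on every array (-0.49) or over the whole array (-0.33), with quantile normalization (-0.50), with normexp (-0.23) and with the dimmer probe alone (-0.56); the adjusted p was above 0.05 in the second (0.122) and the fourth (0.453) of these. At 21, 78 and 104 weeks it was above 0.05 under the same 2 settings as well (0.0614 to 0.547). The call was met at 21 weeks with the percentile over miRNAs detected on all arrays (-0.67), and with no fold threshold at 21 (-0.50), 78 (-0.56) and 104 weeks (-0.56), in the older average (-0.55), in the change between age sets (-0.44) and for age in females (adjusted p = 0.00127). The 6-week difference turned positive with quantile normalization (0.013), normexp (0.035) and the dimmer probe (0.0085). The interaction lost its call with the percentile over all miRNAs (adjusted p = 0.793) and normexp (0.614). The male age effect lost its call with the percentile over all miRNAs (adjusted p = 0.139), normexp (0.000353), an interpolated percentile (2.41e-05, chosen after seeing the data) and the brighter probe alone (2.70e-05), the last 3 by fold only. Leaving out 1 array gave differences of -0.23 to -0.13 (2 weeks), -0.15 to 0.030 (5 weeks), -0.12 to 0.036 (6 weeks), -0.22 to -0.16 (8 weeks), -0.64 to -0.56 (15 weeks), -0.53 to -0.48 (21 weeks), -0.61 to -0.48 (78 weeks) and -0.62 to -0.50 (104 weeks), of -0.57 to -0.53 and -0.14 to -0.085 for the older and the younger average and of -0.47 to -0.41 for their change, and adjusted p-values of 1.72e-06 to 0.000124 for the interaction, 2.3e-05 to 0.00387 for age in females and 8.57e-06 to 0.00017 in males. The replicate block, over numbers that did not pair the sexes of an age, gave -0.57 for the older average and changed no call. Slide and scan day blocks gave -0.56 each. With slide as a fixed block the male age effect could not be fitted, because no slide carried males of both age sets. The methods' t-test and ANOVA, each with adjustment, changed no call of miR-210-3p. At 15, 21, 78 and 104 weeks that t-test gave adjusted p-values of 0.0011, 0.00135, 0.0475 and 0.0075. Fits to the older or the younger arrays alone, also chosen after seeing the data, changed no call. Leaving out the 3 arrays with a miR-122-5p level above 1, also chosen after seeing the data, turned the 6-week difference positive (0.0052) and ended the male age call by fold (adjusted p = 0.000386). The miR-210-3p signal was at least 25.9 times the lowest detected signal.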
